A study of Homo sapiens with 9 samples.

Results

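HMC3 is a line of human microglia that was made immortal with the SV40 large T antigen. Its cells were treated for 6 days with SLO ½, a cocktail of 5 µM SBI-0206965, 0.5 µM Lopinavir and 0.5 µM O-151, and compared with cells given the solvent DMSO, matched to the higher dose (VEH). Whether SLO ½ cells received as much DMSO is not given in the sources used here, and if they received less, the solvent and the drugs cannot be told apart. The 6 libraries of this comparison, 3 per group, are part of 9, the remaining 3 coming from cells given SLO, which held 10 µM SBI-0206965, 1 µM Lopinavir and 1 µM O-151. All libraries were chosen by their labels alone and hold wild-type cells of the same line, so the 3 samples of a group show the spread between samples of 1 line, which may be technical, and not between donors. SBI-0206965 inhibits ULK1, the kinase that starts autophagy, Lopinavir blocks ZMPSTE24, the protease that matures Lamin A, and O-151 inhibits OGG1, the glycosylase that removes oxidized guanine from DNA. The comparison asks how far the transcriptome had already moved at the lower dose, and the difference between doses was tested directly, SLO against SLO ½, because the separate comparisons of each dose with VEH share the VEH libraries.

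Senescent cells stop dividing, keep a high level of the p53 target CDKN1A, lose Lamin B1 and release cytokines, proteases and growth factor binding proteins, together called the senescence-associated secretory phenotype (SASP). DNA or double-stranded RNA in the cytosol is read by cGAS and STING or by the RIG-I-like receptors, which lead to interferon. Interferon then acts through JAK kinases and STAT and IRF factors on the interferon-stimulated response element (ISRE) of antiviral genes.

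Polyadenylated RNA gave 16582267 to 17594006 reads on genes in SLO ½ and 15757312 to 19674841 in VEH. At least 1 read was found for 23559 to 23961 genes in SLO ½ and for 21609 to 22285 in VEH, and 14727 genes passed the filter on low counts and were tested. Reads outside annotated genes made up 6.91% to 8.01% of all reads in SLO ½ and 5.54% to 6.62% in VEH, and their part in the results was not tested. Levels are CPM, read counts scaled to library size with TMM factors, given in the order of replicates 1, 2 and 3, and changes are log2 changes from a fit to all 9 libraries, called at an adjusted p below 0.05. Since these are bulk samples, fewer cells of a kind and less RNA per cell cannot be told apart.

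Against VEH, 7663 genes were called in SLO ½, a background of 52% of those tested, with 3936 higher (26.7%) and 3727 lower (25.3%). Which direction held the majority depends on the scaling: 51.4% of calls were higher here, 60.3% with library size only (4637 higher and 3049 lower) and 44.3% with limma on log2(TPM + 1) (3280 and 4131). The rises were larger than the falls. The median log2 change was 0.50 among genes that rose and −0.30 among genes that fell, beside 0.02 over all tested genes, and 938 genes (6.37%) rose by more than 2-fold whereas 74 (0.502%) fell by as much. For 58.3% of tested genes the 3 SLO ½ libraries lay entirely above or entirely below VEH. With at least 10 counts required in every library, 429 rises and 35 falls went past 2-fold.

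Level and direction went together, as the bars of calls by level show. Among protein-coding genes in the lowest of 4 equal bins of average level, 32.5% rose and 6.29% fell. In the highest bin the order was turned, with 22.5% risen and 45.7% fallen. Long noncoding RNAs are mostly of low level, and 402 of the 1621 tested rose whereas 114 fell, with a median log2 change of 0.20 beside −0.0037 for protein-coding genes. The lowest bin holds 1259 noncoding and 1956 coding genes. There 21.8% of noncoding and 32.5% of coding genes rose, and 3.18% and 6.29% fell. Within the second bin, with 302 noncoding and 3244 coding genes, 34.8% and 29.2% rose, and 18.2% and 19.6% fell. Which kind rose more often thus differed between these bins. The share of genes called also rose with level, from 31.4% of genes called in the lowest bin to 68.3% in the highest. A change of a given size is easier to call at higher counts, so this share does not measure the size of changes. The median log2 change was 0.25 in the lowest bin and −0.08 in the highest. Bins were set by the average over all 9 libraries, and the filter kept genes with enough counts in only 3 of them. A gene near 0 in VEH could therefore enter the lowest bin through treated libraries alone, which favours rises there. How much of the link between level and direction comes from this was not tested.

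**Figure D1:**
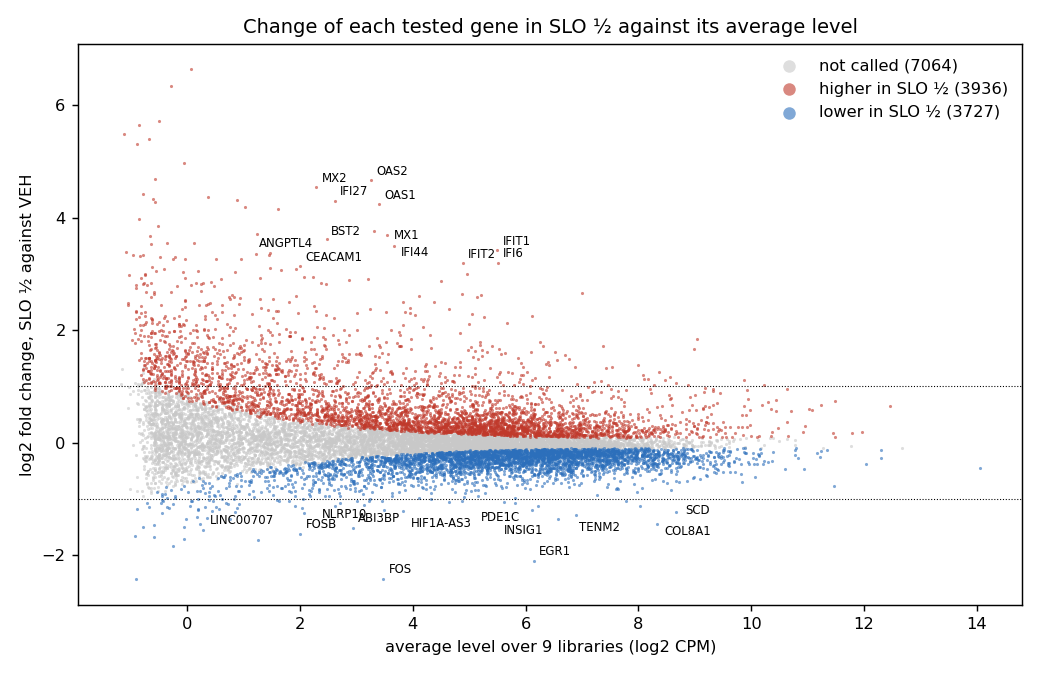
Each point is 1 of the 14727 tested genes, with its average level over 9 libraries on the horizontal axis (log2 CPM) and its log2 change in SLO ½ against VEH on the vertical axis. Red points (3936) were called higher and blue points (3727) lower; dotted lines mark 2-fold, and the 12 largest rises and falls by the rule on level and overlap are named.

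**Figure D2:**
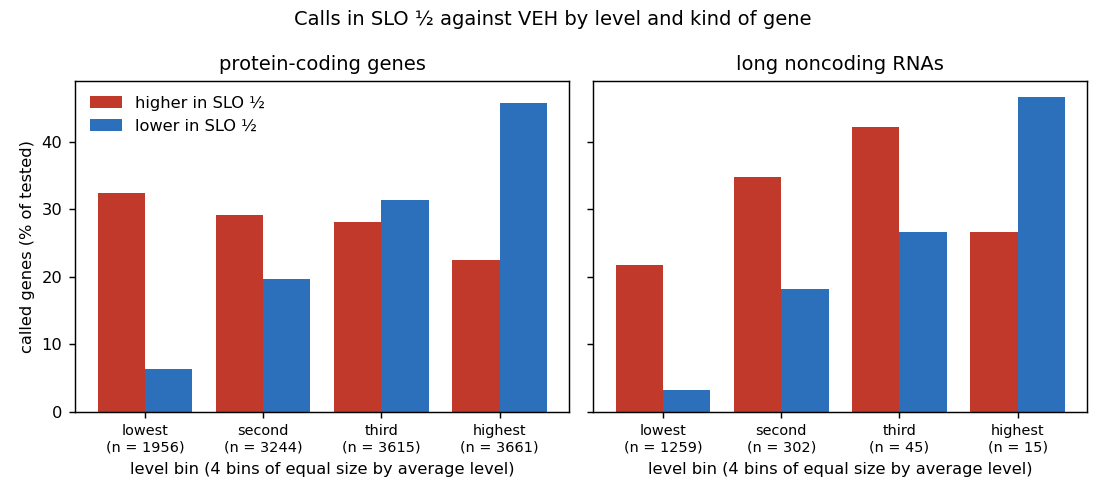
Bars show the percentage of tested genes called higher (red) or lower (blue) in SLO ½ for each of 4 equal bins of average level, left for protein-coding genes and right for long noncoding RNAs, with the number of genes under each bin. Falls outnumber rises only in the third and highest bins of the coding genes and in the highest bin of the noncoding ones, which holds 15 genes.

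Interferon-stimulated genes made up most of the largest rises, and they stood higher in SLO ½ than in SLO. Of 49 antiviral effector genes tested, 48 rose (median log2 change 1.70), and 45 of the 49 were lower in SLO than in SLO ½ (median log2 difference −0.88), where 20.3% of all tested genes were lower and 20.8% higher. OAS2 (chr12:112978400-113011720, GRCh38), an oligoadenylate synthetase activated by double-stranded RNA, read 1.905, 0.394 and 0.4701 CPM in the VEH libraries, 25.2, 18.98 and 24.6 in SLO ½ and 5.81, 3.41 and 2.93 in SLO. The 3 groups did not overlap, and the SLO ½ libraries were the highest. Its rise at the lower dose (log2 change 4.66, SE 0.239, adjusted p = 9.83e-16) was larger than the part kept at the higher dose, as SLO lay well below SLO ½ (log2 difference −2.49, adjusted p = 4.32e-12). MX1 and MX2, dynamin-like GTPases that trap viral nucleocapsids, followed the same order. MX1 went from 3.11, 1.64 and 1.46 CPM in VEH to 26.2, 23.7 and 29.2 in SLO ½ and 8.11, 4.53 and 3.72 in SLO (log2 change 3.69, SE 0.187, adjusted p = 7.92e-16 for SLO ½). MX2 dropped further still between the doses (log2 difference −2.80, adjusted p = 1.24e-11), from 12.9, 9.49 and 13.1 CPM to 2.48, 1.47 and 1.06, with 0.952, 0.4596 and 0.157 CPM in VEH.

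The IFIT genes, whose products bind viral RNA, rose at both doses and stood highest in SLO ½. IFIT1 (chr10:89392546-89406487) measured 14.2, 7.55 and 6.998 CPM in VEH and 105, 92.3 and 108 in SLO ½ (log2 change 3.43, SE 0.123, adjusted p = 4.23e-19), then 26.8, 20.5 and 19.9 in SLO. IFIT2 (6.35, 5.06 and 5.17 to 50.98, 47.98 and 52.2 CPM, log2 change 3.19) and IFIT3 (11.7, 8.86 and 10.8 to 66.7, 61.98 and 64.6 CPM, log2 change 2.62) had log2 changes against VEH of 2.55 and 1.74 in SLO, where that of IFIT1 was 1.24. IFI27, IFI6 and IFI44, interferon-induced proteins, and BST2, which tethers budding virus to the cell surface, rose by log2 changes of 4.30, 3.20, 3.50 and 3.75 (adjusted p = 9.56e-15, 5.28e-15, 1.16e-16 and 1.32e-15). IFITM3, which blocks viral entry, rose from 58.9, 44.5 and 43.9 CPM to 101, 94.5 and 100.1 (log2 change 1.01, SE 0.0707, adjusted p = 1.23e-12) and was back at 57.8, 52.6 and 50.002 CPM in SLO, a level not called different from VEH (log2 change 0.13, adjusted p = 0.141). CEACAM1, an adhesion receptor outside these lists, was also among the 12 largest rises (1.14, 0.591 and 0.4701 to 7.15, 6.404 and 5.57 CPM, log2 change 3.14).

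A minority of the antiviral genes did not follow this order. TRIM22, a ubiquitin ligase with antiviral activity, had the smallest p of the list and read 6.03, 5.91 and 6.58 CPM in VEH, 39.5, 37.1 and 40.1 in SLO ½ and 41.3, 42.5 and 43.8 in SLO, and the SLO libraries lay just above those of SLO ½, a difference that missed the threshold (log2 difference 0.13, adjusted p = 0.0769). GBP1, a GTPase that coats intracellular pathogens, had overlapping levels at the doses (16.95, 16.5 and 15.2 CPM in VEH, 69.4, 67.1 and 76.2 in SLO ½ and 65.9, 61.5 and 69.3 in SLO), and APOL1 and GBP2, named after their values were seen, were the other members not lower in SLO. IFITM2, likewise named after its value was seen, was the 1 tested member not called in SLO ½ (log2 change −0.07). In this list VEH replicate 1 held the highest VEH level for 40 of 49 genes, and the size of the rises depends on it: without that library OAS2 changed by 5.69 on the log2 scale, MX2 by 5.30, IFI27 by 5.37 and BST2 by 4.54. The median of the list lay between 1.57 and 1.75 when any single library of either group was left out. The SLO against SLO ½ contrast does not use the level of the VEH libraries.

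**Figure D3:**
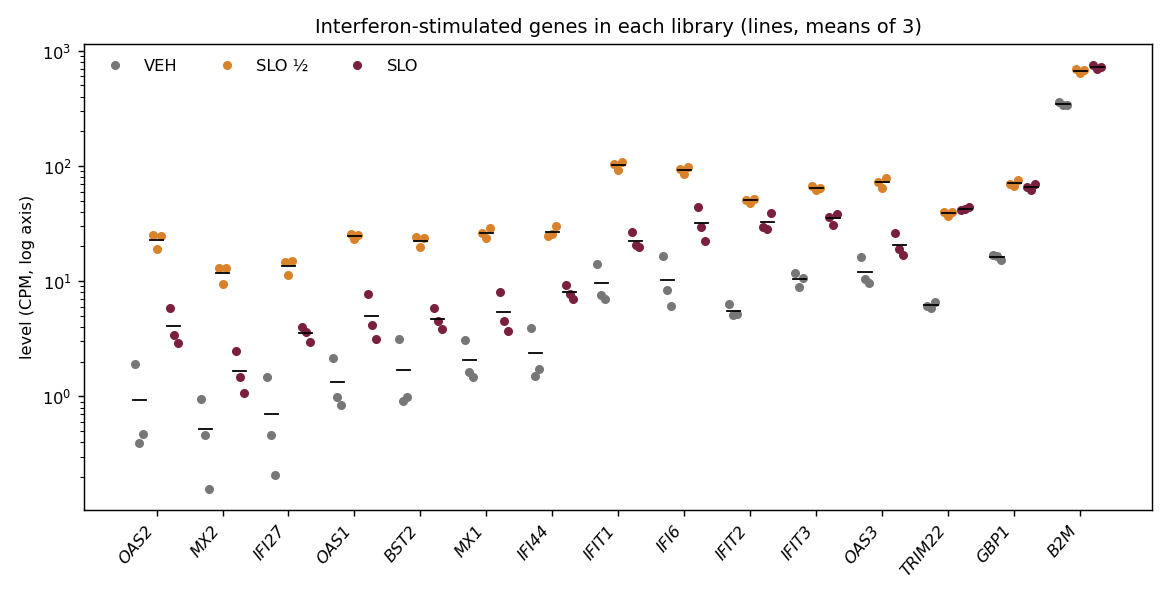
CPM on a log axis is plotted for 15 interferon-stimulated genes in each of 9 libraries, grey for VEH, orange for SLO ½ and dark red for SLO, with a line at each mean of 3. For the genes from OAS2 to OAS3 the orange points lie above both other groups, whereas for TRIM22, GBP1 and B2M the doses lie close together.

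The promoters of these genes were searched for the ISRE core in the 250 bases before each RefSeq start (GRCh38.p14), as 2 copies of GAAA with 2 bases of any kind between them or, on the other strand, 2 copies of TTTC spaced alike, and overlapping matches were counted. A match was present for 26 of the 39 tested antiviral genes that have an entry (66.7%) and for 3.29% of all 10758 tested genes with one, or 3.02% of all 35116 starts. Among genes that rose past 2-fold the share was 8.59%, among all genes that rose 4.47%, among those that fell 3.26% and among those not called 2.60%. Both sets of risen genes include antiviral genes already counted, so their shares are not separate from the 66.7%. Shares without the listed genes were not computed. These matches describe letters in a window and not bound sites. The stretches below come from 6 of the 12 genes with the largest rises, written 5′ to 3′ on the strand of the gene with the matches in capitals, and show paired or overlapping cores in IFI27, BST2, IFIT1 and IFI6.
IFI27, chr14:94110583-94110695, plus strand: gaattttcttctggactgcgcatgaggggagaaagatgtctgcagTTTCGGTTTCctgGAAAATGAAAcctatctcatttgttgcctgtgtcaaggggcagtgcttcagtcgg
BST2, chr19:17405700-17405805, minus strand: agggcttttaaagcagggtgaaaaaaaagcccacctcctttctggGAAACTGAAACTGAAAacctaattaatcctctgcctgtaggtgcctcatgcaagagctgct
IFIT1, chr10:89392462-89392574, plus strand: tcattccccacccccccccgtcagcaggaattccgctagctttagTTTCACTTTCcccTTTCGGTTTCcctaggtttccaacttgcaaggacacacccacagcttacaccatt
IFI6, chr1:27672231-27672393, minus strand: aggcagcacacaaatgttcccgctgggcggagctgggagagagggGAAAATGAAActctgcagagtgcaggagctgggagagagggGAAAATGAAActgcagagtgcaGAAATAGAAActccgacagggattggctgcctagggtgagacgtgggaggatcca
IFI44, chr1:78649726-78649788, plus strand: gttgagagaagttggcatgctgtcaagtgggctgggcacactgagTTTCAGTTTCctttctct
MX1, chr21:41431809-41431908, plus strand: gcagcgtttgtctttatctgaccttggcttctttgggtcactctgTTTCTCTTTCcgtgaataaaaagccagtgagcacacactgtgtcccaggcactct
For MX1 the match lay before 1 of its 3 listed starts. No match lay in the OAS1 window, although OAS1 went from 2.16, 0.985 and 0.836 CPM to 25.5, 23.3 and 25.04.

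Sensors of double-stranded RNA rose as well, in a list that also holds OAS enzymes and does not separate triggers of the response from its products. Of the 10 tested double-stranded RNA sensors and OAS enzymes, 9 rose (median 2.63) and 8 were lower in SLO than in SLO ½. OAS3 read 16.2, 10.4 and 9.71 CPM in VEH, 72.3, 64.8 and 78.7 in SLO ½ and 26.1, 19.1 and 16.9 in SLO (log2 change 2.58, SE 0.12, adjusted p = 1.08e-16 for SLO ½). The RIG-I-like receptors RIG-I (gene DDX58), MDA5 (gene IFIH1) and LGP2 (gene DHX58) had log2 changes of 3.03, 1.72 and 2.69. Those of EIF2AK2, the kinase that halts translation, and ADAR, which edits double-stranded RNA, were 0.31 and 0.10. These genes were named after their values were seen. The reads behind some of them were few: DHX58 read 0, 0.263 and 0.104 CPM in VEH, and on the log2(TPM + 1) scale the median of the list was 0.96, with 8 of the 10 called higher.

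In the list of cGAS-STING genes and adaptors of the RNA sensors, 6 of 8 tested genes rose and 1 fell. STING1, the adaptor of the pathway, went from 13.8, 12.1 and 13.8 CPM in VEH to 34.1, 33.97 and 32.8 in SLO ½ (log2 change 1.34, SE 0.0721, adjusted p = 2.99e-15), and a little further in SLO, to 36.5, 39.1 and 40.3 (log2 difference 0.20, adjusted p = 0.0099). CGAS, the DNA sensor, rose less (12.8, 12.9 and 13.1 to 15.8, 16.2 and 18.5 CPM, log2 change 0.38, adjusted p = 0.000411). MAVS, the adaptor of the RNA sensors, fell from 185, 200.3 and 197 CPM to 168, 175 and 177 (log2 change −0.16, SE 0.0418, adjusted p = 0.00152). STING1 thus stood highest in SLO, where 45 of the 49 antiviral effectors were lower than in SLO ½.

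No interferon gene passed the filter. Without it 3 were tested and 1, IFNB1, was called higher (adjusted p = 0.0184 with edgeR), and none was called with limma on log2(TPM + 1) and no filter. IFNB1, the interferon-β gene, held 0 counts in every VEH library and 6, 2 and 1 in SLO ½, and the 3 SLO libraries held 1, 1 and 2. For a library, 0 counts allow up to 3, or 0.153 to 0.190 CPM in VEH, so at this depth the gene was near the limit of detection in all groups. IFNA1, IFNA2 and IFNG were at 0 in every library. Among 19 receptor, JAK, STAT and IRF genes, 8 rose and 1 fell, the rest not passing the test (median 0.27). IRF7, which amplifies interferon production, read 7.17, 5.45 and 6.53 CPM in VEH, 15.95, 15.1 and 15.8 in SLO ½ and 11.99, 8.89 and 7.71 in SLO. IFNGR1, a chain of the interferon-γ receptor, rose with the dose instead (28.8, 29.1 and 28.7 CPM in VEH, 45.4, 45.1 and 42.3 in SLO ½ and 54.2, 49.97 and 53.99 in SLO, log2 change 0.62 in SLO ½).

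MHC class I genes, which present peptides on the cell surface, rose in 16 of 17 cases (median 0.78), and 9 were lower in SLO than in SLO ½. B2M, the invariant chain, went from 359, 335 and 339.7 CPM to 693, 640.3 and 685 (log2 change 0.97, SE 0.0431, adjusted p = 4.8e-17), with 749, 694 and 725 in SLO. HLA-B followed (64.8, 52.5 and 49.9 CPM in VEH, 141, 143 and 143 in SLO ½ and 163, 148 and 149 in SLO), and for both the doses did not differ at the threshold (adjusted p = 0.0511 and 0.124). TAP1, which carries peptides into the endoplasmic reticulum, rose from 19.4, 17.8 and 16.97 CPM to 41.9, 39.5 and 41.3 and was lower in SLO (37.96, 34.4 and 33.6 CPM, log2 difference −0.21, adjusted p = 0.00698). HLA genes are near copies of each other, and reads that matched several places were not counted, so their levels rest on their distinct parts.

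Of 26 tested SASP factors 21 rose and none fell (median 1.34), and 12 were lower in SLO than in SLO ½ whereas 4 were higher. IL6, a cytokine, measured 4.32, 3.55 and 3.45 CPM in VEH and 19.4, 22.1 and 17.6 in SLO ½ (log2 change 2.39, SE 0.133, adjusted p = 6.74e-15). In SLO it read 18.5, 25.1 and 23.7, and the doses did not differ at the threshold (adjusted p = 0.122). CXCL8, the neutrophil chemokine IL-8, behaved alike, with 4.19, 4.86 and 4.02 CPM in VEH, 14.4, 14.5 and 13.3 in SLO ½ and 14.8, 13.5 and 11.7 in SLO. IL1B, an upstream inflammatory cytokine, was low throughout but stood highest in SLO ½, at 4.88, 4.06 and 4.01 CPM beside 0.889, 0.722 and 0.836 in VEH (log2 change 2.39, SE 0.218, adjusted p = 2.96e-10) and 1.998, 2.12 and 1.46 in SLO (log2 difference −1.20, adjusted p = 4.69e-06). MMP1, interstitial collagenase, stood higher in SLO ½ than in both other groups (log2 change 1.41, SE 0.115, adjusted p = 3.01e-11, and log2 difference −1.47, adjusted p = 3.72e-11 for SLO against SLO ½). Its levels were 5.08, 5.84 and 7.99 CPM in VEH, 16.5, 16.8 and 17.7 in SLO ½ and 5.69, 6.12 and 6.58 in SLO, and the contrast of SLO with VEH gave a log2 change of −0.06 that was not called; MMP1 was named after its values were seen. CCL5, a chemokine induced by interferon and NF-κB, had 3, 1 and 1 counts in VEH and 34, 38 and 42 in SLO ½, too few in VEH for a firm fold. TNF was not tested, and CXCL10 held 0 counts in every VEH library and 1, 2 and 2 in SLO ½.

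Binding proteins of insulin-like growth factor and a serine protease inhibitor had the smallest p of the SASP list. IGFBP7 rose with the dose, from 57.1, 54.95 and 46.4 CPM to 166, 178 and 177 (log2 change 1.72, SE 0.0547, adjusted p = 3.05e-20) and 279, 265 and 277. SERPINE2 peaked in SLO ½ (94.5, 91.5 and 105 CPM in VEH, 244, 251 and 242 in SLO ½ and 219.9, 211 and 205 in SLO, log2 difference −0.21, adjusted p = 0.000247 for SLO against SLO ½). IGFBP4 went from 36.4, 41.6 and 35.5 CPM to 98.2, 103 and 105, log2 change 1.43.

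NF-κB subunits and feedback genes gave 13 rises and 1 fall among 22 (median 0.33), and 13 were lower in SLO than in SLO ½. TNFAIP3, the ubiquitin-editing brake A20, rose from 7.37, 7.22 and 6.27 CPM to 25.4, 24.5 and 24.9 (log2 change 1.85, SE 0.0876, adjusted p = 1.74e-16) and stood at 13.8, 14.95 and 13.8 in SLO (log2 difference −0.81, adjusted p = 1.25e-09). BIRC3, an inhibitor of apoptosis induced by NF-κB, followed it (7.37, 9.98 and 6.95 CPM in VEH, 31.4, 29.6 and 30.2 in SLO ½ and 20.1, 19.9 and 20.6 in SLO), whereas its neighbour BIRC2 was not called different between the doses (116, 124 and 125 CPM in VEH, 209.9, 214 and 212 in SLO ½ and 215, 202 and 219.7 in SLO, adjusted p = 0.973). REL, named after its value was seen, was the 1 member that fell. The median of the list against VEH was 0.33 in SLO ½ and 0.07 in SLO, values that share the VEH libraries.

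Complement genes rose in 10 of 13 cases, none falling (median 0.71). C3, the central component, went from 1.71, 2.101 and 1.201 CPM to 12.04, 10.98 and 13.5 (log2 change 2.89, SE 0.158, adjusted p = 4.64e-15) and was lower in SLO, at 7.69, 7.06 and 8.44 (log2 difference −0.66, adjusted p = 3.57e-05). CLU, a secreted chaperone that restrains complement, moved the other way between the doses, with 20.3, 18.8 and 19.5 CPM in VEH, 44.9, 43.7 and 46.1 in SLO ½ and 129.97, 112 and 114 in SLO. CD55, which dissolves the convertases on the cell's own surface, rose from 24.4, 24.9 and 25.7 to 39.7, 41.8 and 41.8 CPM. C1QA, C1QB and C1QC, made by microglia in tissue, held 0 counts in every library.

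**Figure D4:**
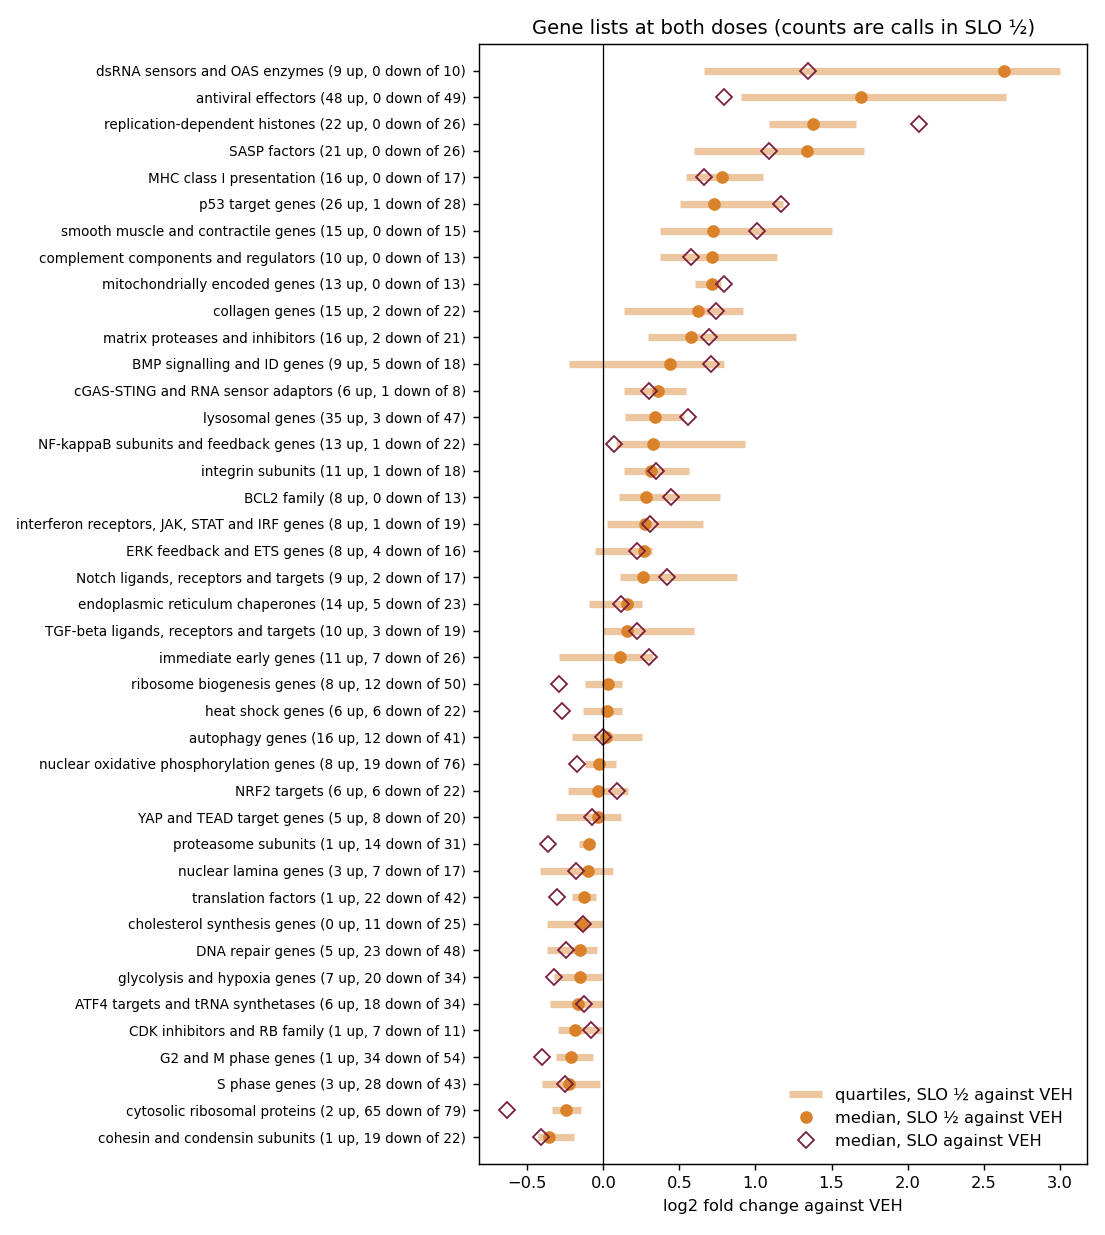
For each list with at least 8 tested genes, the orange dot and bar give the median and quartiles of log2 changes in SLO ½ against VEH and the open diamond the median in SLO against VEH, with counts of calls in SLO ½ beside the name. The medians of antiviral effectors, RNA sensors, SASP factors and NF-κB genes lie to the right of their diamonds, while histones, p53 targets, ribosomal proteins and proteasome subunits lie nearer to 0 than theirs; both contrasts share the VEH libraries.

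Immediate early genes, the first transcribed after growth factors reach a cell, split by member, with 11 rises and 7 falls among 26. The share that fell was close to that over all tested genes (25.3%). FOS, a subunit of AP-1, headed the 12 largest falls. Its VEH libraries read 27.2, 25.5 and 18.7 CPM and its SLO ½ libraries 8.57, 1.89 and 2.696, with replicate 1 above the others (log2 change −2.42, SE 0.229, adjusted p = 6.05e-10, or −3.37 without that library). In SLO it read 5.99, 4.24 and 5.39 CPM, and the doses did not differ at the threshold (adjusted p = 0.57). EGR1 (chr5:138465480-138469300), a zinc finger factor driven by serum response factor, fell from 154, 134 and 112 CPM to 43.9, 27.3 and 21.7 (log2 change −2.10, SE 0.124, adjusted p = 2.74e-14). It was less low in SLO, at 48.2, 49.97 and 45.3 CPM (log2 difference 0.62, adjusted p = 0.000498). FOSB (7.302, 8.14 and 6.69 to 3.46, 1.83 and 1.86 CPM) and MYC (129, 117 and 119 to 79.6, 81.9 and 74.1 CPM, log2 change −0.63) fell too, with JUN, IER2 and ZFP36, which were named after their values were seen. The antiproliferative gene BTG2 rose instead, from 11.7, 9.52 and 8.98 CPM to 24.2, 23.8 and 22.9 and 36.4, 34.4 and 29.5 in SLO.

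The window before EGR1 is shown because it holds a pair of CArG boxes, the sites of serum response factor, in capitals.
EGR1, chr5:138465329-138465450, plus strand: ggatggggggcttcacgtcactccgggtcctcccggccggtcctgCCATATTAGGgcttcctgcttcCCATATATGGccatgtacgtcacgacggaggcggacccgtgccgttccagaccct
A CArG box stood in this window for 1.51% of tested genes with an entry and for 2 of the 20 immediate early genes. In the smooth muscle and contractile list, where every tested gene rose, it stood for 4 of 11 (36.4%), so the same letters precede genes that fell and genes that rose.

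Of 16 feedback genes of the ERK pathway 8 rose and 4 fell, the falls again close to the share over all tested genes (25.3%). The phosphatase DUSP4 rose from 17.6, 21.2 and 25.9 CPM to 47.01, 50.4 and 44.6 (log2 change 1.12, SE 0.0845, adjusted p = 5.6e-12), and SPRY4, an inhibitor of receptor tyrosine kinase signalling, from 8.13, 8.27 and 9.14 to 16.2, 16.7 and 16.1. ETV1 and ETV4, ETS factors downstream of ERK, fell by 0.82 and 0.37 on the log2 scale and were named after their values were seen. Target genes of YAP and TEAD, which respond to tension and spreading, also split, 5 up and 8 down of 20. The share that rose was close to that over all tested genes (26.7%). The median of −0.04 for this list became 0.01 with library size as the only scaling. ANKRD1 rose steeply with the dose, from 116, 141 and 149.9 CPM to 485, 502 and 486 (log2 change 1.85, SE 0.06, adjusted p = 4.17e-20) and 921, 911 and 1018 in SLO. NT5E, the ecto-enzyme CD73, rose from 14.1, 16.9 and 18.96 to 53.8, 50.1 and 53.6 CPM, while RBMS3, an RNA-binding protein, fell from 46.8, 51.3 and 50.6 to 22.5, 24.8 and 25.8.

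Notch ligands, receptors and targets gave 9 rises and 2 falls of 17. JAG1, a Notch ligand, rose from 18.2, 22.98 and 19.2 CPM to 125, 127 and 127 in libraries that hardly differed from each other (log2 change 2.65, SE 0.0596, adjusted p = 1.66e-23), and to 237, 228 and 246 in SLO. JAG2 rose from 7.37, 5.91 and 6.01 to 10.96, 13.04 and 11.4 CPM, and RBPJ, the DNA-binding partner of Notch, fell from 326, 311 and 329 to 244, 226 and 233. The BMP list gave 9 rises and 5 falls of 18, its falls near the share over all tested genes (25.3%). BMP4 rose from 10.4, 11.6 and 12.4 CPM to 25.7, 26.1 and 27.9, and with it GREM1 (0.66) and BAMBI (1.71), which antagonize BMP and TGF-β signals. In the TGF-β list, with 10 rises and 3 falls of 19, TIMP3, an inhibitor of matrix proteases, stood at 19.2, 20.4 and 20.6 CPM in VEH, 61.3, 60.1 and 63.6 in SLO ½ and 129, 117 and 121 in SLO, and TGFBI, a matrix protein, at 319.9, 361 and 258 CPM in VEH, 543, 566 and 570.2 in SLO ½ and 679, 639 and 686 in SLO.

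Contractile genes rose in 15 of 15 cases (median 0.72), with 8 higher and 4 lower in SLO than in SLO ½. ACTA2, smooth muscle actin, went from 2.86, 2.82 and 2.402 CPM to 19.4, 19.6 and 20.2 (log2 change 2.88, SE 0.115, adjusted p = 3.6e-18) and 44.3, 42.97 and 50.4 in SLO. TAGLN, an actin-bundling protein, went from 425, 431 and 439 to 931, 942 and 926 CPM. In reads, MYL9, the regulatory light chain of myosin, and CALD1, caldesmon, were among the 8 largest gains, with log2 changes of 1.03 and 0.58 (adjusted p = 2.39e-18 and 2.97e-12).

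Matrix and adhesion genes rose on balance, with marked exceptions. Among 22 collagen genes 15 rose and 2 fell (median 0.62). COL6A1 rose from 93.2, 88.1 and 80.2 CPM to 169.6, 179 and 173, log2 change 0.999, and COL18A1 from 83.9, 87.6 and 79.4 to 157, 159 and 159, whereas COL8A1, a short-chain collagen, fell from 672, 574 and 573 to 231, 215 and 222 (log2 change −1.45, SE 0.0504, adjusted p = 2.25e-19). FN1, fibronectin, lost more reads than any other gene, falling from 22801, 23588 and 20327 CPM to 16916, 16005 and 16216 (log2 change −0.44, SE 0.0491, adjusted p = 1.28e-08) and to 11631, 12346 and 12443 in SLO. Integrin subunits gave 11 rises and 1 fall of 18. ITGB3 rose from 11.9, 11.03 and 11.1 CPM to 55.6, 53.5 and 52.7 and then to 145, 134 and 150.7 in SLO (log2 difference 1.41, adjusted p = 1.5e-18), and ITGA1, a collagen receptor, from 9.08, 8.93 and 8.304 to 27.1, 28.1 and 27.3, while ITGB8, which activates latent TGF-β, was the member that fell (109.8, 123 and 121 to 55.3, 53.98 and 53.4 CPM, log2 change −1.12). Of 21 matrix proteases and inhibitors, 16 rose and 2 fell, led by TIMP3 and the aggrecanases ADAMTS5 (24.3, 29.5 and 24.9 to 61.5, 62.8 and 64.1 CPM) and ADAMTS15 (4.38, 5.91 and 4.18 to 14.9, 14.5 and 15.9 CPM). ABI3BP, a matrix protein, and TENM2, a teneurin adhesion molecule, were among the 12 largest falls, with log2 changes of −1.51 and −1.29.

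The p53 targets rose, and most were higher in SLO than in SLO ½. Of 28 tested, 26 rose and 1 fell (median 0.73), and in SLO 21 were higher than in SLO ½ and none lower, where 20.8% of all tested genes were higher. CDKN1A (chr6:36676460-36687337), the p21 inhibitor of cyclin-dependent kinases, went from 112, 91.2 and 80.9 CPM in VEH to 252, 248 and 241 in SLO ½ (log2 change 1.39, SE 0.0643, adjusted p = 1.15e-16) and 428, 428 and 414 in SLO (log2 difference 0.78, adjusted p = 1.77e-11). TP53I3, a quinone oxidoreductase induced by p53, read 23.7, 20.9 and 22.1 CPM in VEH, 57.3, 62.4 and 58.04 in SLO ½ and 97.04, 101 and 101 in SLO. MDM2, the ligase that degrades p53, read 166, 175 and 156 CPM in VEH, 326, 335 and 355 in SLO ½ and 427, 417 and 425 in SLO. SV40 large T antigen, with which this line was made immortal, binds p53 and RB proteins, and its level was not examined here. CCNG1, named after its value was seen, was the 1 target that fell, with a log2 change of −0.14.

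The other cell cycle inhibitors did not rise with CDKN1A. Among the 11 CDK inhibitors and RB family genes, CDKN1A alone was higher and 7 were lower. CDKN2A, which encodes p16 and ARF, fell from 105, 101 and 98.4 CPM to 82.5, 87.4 and 84.3 (log2 change −0.26, SE 0.0436, adjusted p = 1.3e-05), CDKN2C from 70.9, 75.96 and 63.7 to 40.8, 45.2 and 41.8 and RBL2, the RB relative p130, from 137, 124 and 112 to 87.9, 85.3 and 86.97. CDKN2B, which encodes p15, was lower in SLO ½ and higher in SLO, with 72.7, 57.4 and 56.1 CPM in VEH, 49.96, 50.4 and 46.2 in SLO ½ (log2 change −0.34, adjusted p = 0.000128) and 79.7, 81.2 and 85.6 in SLO (log2 difference 0.75, adjusted p = 4.02e-10). CDKN1B and RB1 had the same order at smaller size, with log2 changes of −0.19 and −0.15 in SLO ½ and differences of 0.33 and 0.26 between the doses; these 3 genes were named after their values were seen.

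Genes of DNA replication and mitosis fell by small amounts. Of 43 S phase genes 28 fell and 3 rose (median −0.23), and of 54 G2 and M phase genes 34 fell and 1 rose (median −0.21). MCM6, a subunit of the replicative helicase, went from 233, 232 and 221 CPM to 119, 119 and 121 (log2 change −0.93, SE 0.0417, adjusted p = 5.04e-17) and had nearly the same level in SLO (115, 106 and 116 CPM, log2 difference −0.09, adjusted p = 0.0962). POLA1 (158, 163 and 150.7 to 93.2, 90.6 and 88.5 CPM) and CDCA7 (130.5, 127 and 125 to 75.3, 81.9 and 83.7 CPM) fell likewise. In SLO 39 of the 54 mitotic genes were lower than in SLO ½ and 2 higher, and of the 43 S phase genes 14 were lower and 6 higher. The histone chaperone ANP32E read 298, 285 and 295 CPM in VEH, 165, 161 and 169 in SLO ½ and 125, 123 and 129 in SLO, the chromatin protein HMGB2 638, 554 and 557 CPM in VEH, 361, 376 and 359 in SLO ½ and 276, 258 and 271 in SLO, and the proliferation marker MKI67 1430.4, 1616 and 1369 CPM in VEH, 1017, 956 and 914 in SLO ½ and 753, 837 and 784 in SLO. Cohesin and condensin subunits fell in 19 of 22 cases (median −0.35), led by STAG1 (−0.69), SMC4 (−0.52) and SMC2 (−0.42).

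Replication-dependent histone genes went against this, although their messages normally accompany S phase and end without a poly(A) tail, which poly(A) selection needs. Of 26 tested, 22 rose and none fell (median 1.38), and 18 were higher in SLO than in SLO ½. H4C8 read 4.25, 3.61 and 3.13 CPM in VEH, 30.5, 29.05 and 27.9 in SLO ½ (log2 change 3.00, SE 0.0966, adjusted p = 3.77e-20) and 62.6, 59.6 and 58.98 in SLO. H2BC12 (32.2, 32.4 and 35.7 to 90.8, 87.8 and 87.6 CPM) and H2BC5 (12.1, 11.5 and 12.1 to 38.7, 35.6 and 34.6 CPM) followed, and all 3 libraries of each dose stood apart from VEH. Another 30 listed histone genes were under the filter, and histone genes share sequence, so the split of reads between them is uncertain.

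**Figure D5:**
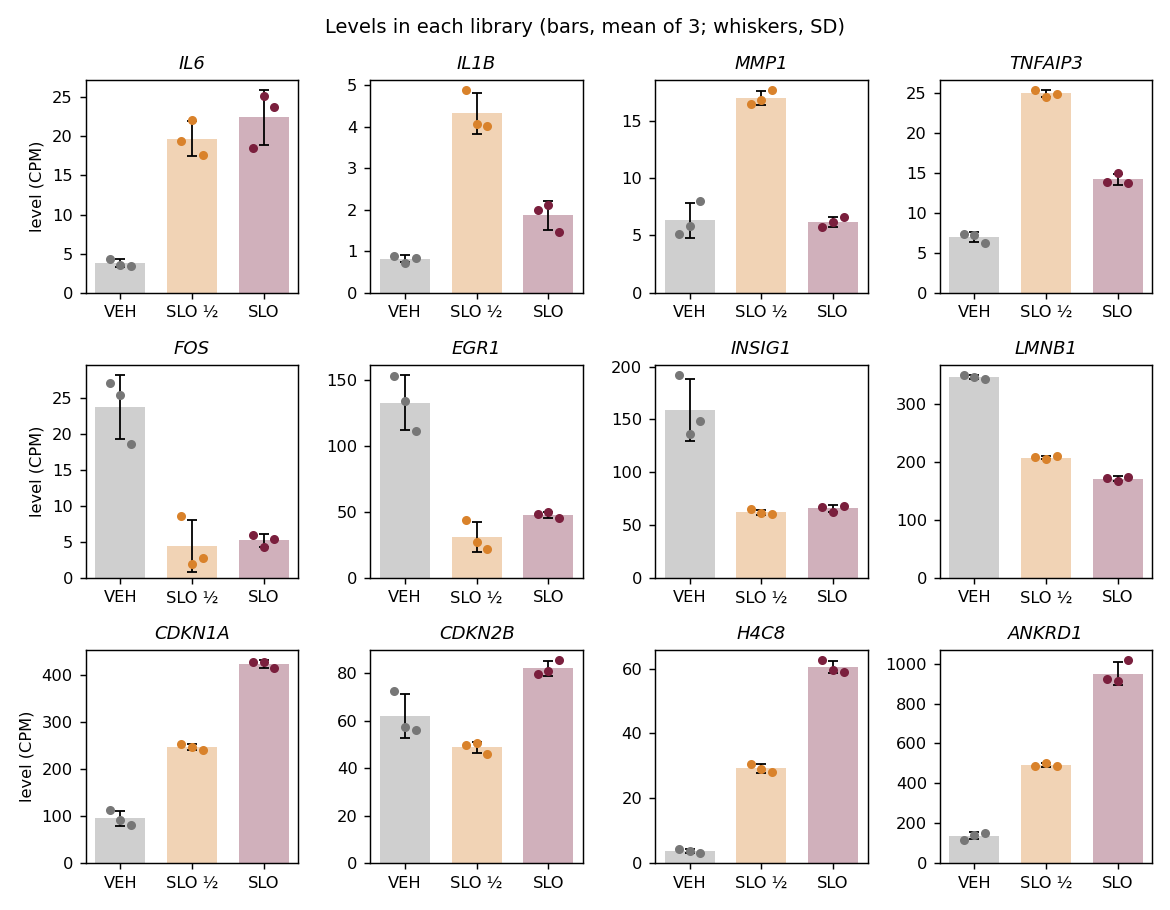
Points give CPM in each of 9 libraries for 12 genes, with bars at the mean and whiskers for the SD of 3 libraries. IL1B, MMP1 and TNFAIP3 stand highest in SLO ½, CDKN2B stands lowest there, CDKN1A, H4C8 and ANKRD1 rise and LMNB1 falls across VEH, SLO ½ and SLO, and FOS, EGR1 and INSIG1 are low at both doses.

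In the nuclear lamina, B-type lamins fell and the A-type gene rose slightly. LMNB1 (chr5:126776620-126837020) went from 349, 346 and 342 CPM to 208, 204 and 209 (log2 change −0.74, SE 0.0379, adjusted p = 9.53e-16) and 172, 166 and 174 in SLO. LMNB2 (324, 313 and 323 to 234, 236 and 232 CPM) and TMPO, the lamina-associated polypeptide LAP2 (743, 756 and 734 to 518, 487 and 501 CPM), fell too, and in all 7 of 17 lamina genes fell and 3 rose. LMNA read 258, 255 and 280.1 CPM in VEH and 296, 297 and 301 in SLO ½ (log2 change 0.17, SE 0.044, adjusted p = 0.00155), and ZMPSTE24, the target of Lopinavir, 104, 122 and 119 and 126, 126 and 137 (log2 change 0.17, adjusted p = 0.00743). The ZMPSTE24 call is lost without VEH replicate 1 (log2 change 0.10, adjusted p = 0.0998) and without SLO ½ replicate 3 (adjusted p = 0.0774). Of the other drug targets, ULK1 rose from 32.95, 29.1 and 29.6 CPM to 36.7, 37.9 and 34.4 (log2 change 0.25, SE 0.0651, adjusted p = 0.0018), and OGG1 read 15.2, 17.3 and 16.8 and 16.5, 17.04 and 15.3 (log2 change −0.01, adjusted p = 0.925). These are transcript levels and do not measure the enzymes' activity. The calls of LMNA and ULK1 are likewise each lost under at least 1 alternative. HMGB1, a nuclear protein released by senescent cells, fell from 157, 169.5 and 165 CPM to 121, 133 and 123 and 99.8, 90.8 and 101 in SLO.

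DNA repair genes gave 23 falls and 5 rises of 48 (median −0.15). The mismatch repair gene MSH6 fell from 316, 307 and 311 CPM to 219, 210.1 and 214 (log2 change −0.54, SE 0.0377, adjusted p = 1.26e-12), the Ku subunit XRCC5 from 835, 824 and 854 to 621, 606 and 609 and the uracil glycosylase UNG from 123, 122 and 119.97 to 89.9, 89.5 and 86.02. Those that rose were NEIL1 (0.91), TDG (0.43) and MPG (0.37), which are base excision glycosylases like OGG1, and LIG4 (0.19) and CHEK2 (0.20); they were named after their values were seen.

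The machinery of protein synthesis moved little at this dose and further at the higher one. Of 79 cytosolic ribosomal protein genes 65 fell and 2 rose, by a median of −0.25, and 76 of the 79 were lower in SLO than in SLO ½. RPL7A read 546, 520.2 and 548 CPM in VEH, 397, 399 and 403 in SLO ½ (log2 change −0.43, SE 0.0399, adjusted p = 4.2e-10) and 322, 316 and 297 in SLO. RPL3 and RPS23 fell too (log2 changes −0.42 and −0.42). Ribosome biogenesis genes showed no common direction in SLO ½, with 8 up, 12 down and 30 not called of 50, the falls close to the share over all tested genes (25.3%). Their median of 0.03 became −0.0030 without VEH replicate 1 and −0.01 on the log2(TPM + 1) scale. Yet 43 of the 50 were lower in SLO than in SLO ½ and none higher. FBL, the methyltransferase of ribosomal RNA, was the clearest fall at both steps (137, 129.9 and 130.5 CPM in VEH, 88.3, 92.98 and 89.5 in SLO ½ and 58.8, 55.4 and 53.5 in SLO), followed by HEATR1 (−0.51) and NPM1 (−0.32). Translation factors gave 22 falls and 1 rise of 42 (median −0.13), with EIF4B at 685, 636 and 666 CPM in VEH and 418, 400.2 and 416 in SLO ½ (log2 change −0.69, SE 0.0435, adjusted p = 1.29e-13), EEF1A1 at −0.52 and EIF3L at −0.39. Proteasome subunits gave 14 falls and 1 rise of 31, small in size (median −0.09), and 26 were lower in SLO. PSMD1 went from 276, 281 and 283 CPM to 232, 229 and 232, log2 change −0.28.

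Autophagy genes moved both ways, with 16 rises and 12 falls of 41, the falls near the share over all tested genes (25.3%). Their median of 0.02 ran from −0.02 on the log2(TPM + 0.1) scale to 0.07 with library size only. MAP1LC3B, the LC3 protein of the autophagosome membrane, went from 83.6, 78.8 and 84.1 CPM to 124, 130.03 and 125 (log2 change 0.62, SE 0.0433, adjusted p = 1.14e-12) and 161, 156 and 165 in SLO. GABARAPL1, of the same family, read 37.1, 33.2 and 34.0000 CPM in VEH, 55.1, 52.4 and 56.4 in SLO ½ and 79.97, 70.2 and 82.9 in SLO, and OPTN, a cargo receptor, 56.9, 52.3 and 50.9 CPM in VEH, 83.9, 88.9 and 86.1 in SLO ½ and 84.4, 85.4 and 83.4 in SLO. Lysosomal genes had more of a common direction, 35 up and 3 down of 47 (median 0.34), and 28 of the 47 were higher in SLO than in SLO ½. The sialidase NEU1 rose from 52.9, 49.4 and 53.4 CPM to 104, 101 and 94.3 (log2 change 0.94, SE 0.049, adjusted p = 1.48e-15), the protease LGMN from 73.8, 68.8 and 65.7 to 122, 119.7 and 119.8 and PSAP, the precursor of the saposins, from 419, 383 and 395 to 625, 606 and 622.

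Sterol genes fell where they were called, 11 of 25, with no rise (median −0.14). INSIG1, which retains the sterol sensor SCAP and is itself induced when sterol is scarce, fell from 192, 136 and 148 CPM to 64.7, 60.9 and 60.3 (log2 change −1.36, SE 0.076, adjusted p = 8e-15). MSMO1, an enzyme of cholesterol synthesis, fell from 102, 91.1 and 96.9 CPM to 71.5, 63.1 and 66.7. Both stood below VEH at the higher dose too, with log2 differences between SLO and SLO ½ of 0.08 and −0.09. SCD, the stearoyl-CoA desaturase, was among the 12 largest falls (712, 597 and 557 to 277, 251 and 264 CPM, log2 change −1.24, SE 0.0578, adjusted p = 1.36e-16) and less low in SLO (338, 330.1 and 342 CPM, log2 difference 0.35, adjusted p = 1.53e-05). ANGPTL4, an inhibitor of lipoprotein lipase, rose from 0.508, 0.263 and 0.575 CPM to 4.996, 6.805 and 5.27.

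Glycolysis and hypoxia genes gave 20 falls and 7 rises of 34 (median −0.16). GAPDH, ENO1 and LDHA were among the 8 genes that lost most reads, with log2 changes of −0.27, −0.46 and −0.13 (adjusted p = 1.95e-06, 5.82e-11 and 0.00578), and all were lower in SLO than in SLO ½. The call of LDHA is lost with library size only (log2 change −0.08). HIF1A, the oxygen-regulated factor itself, rose from 384, 401 and 390.1 CPM to 593, 584 and 601 (log2 change 0.60, SE 0.0403, adjusted p = 5.37e-13). P4HA2, a collagen prolyl hydroxylase, rose from 92.7, 94.2 and 94.4 to 137, 135 and 134.

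Transcripts of the mitochondrial genome rose as a block. All 13 tested mitochondrial coding genes were called higher (median 0.71), and 12 had no overlap between the groups, where 58.3% of all tested genes had none. Mitochondrial reads made up 2.30% to 2.86% of reads on genes in SLO ½ and 1.30% to 1.61% in VEH. MT-ND1 read 988, 938 and 749 CPM in VEH and 1581, 2041 and 1580.1 in SLO ½ (log2 change 0.96, SE 0.085, adjusted p = 1.58e-10), and MT-ATP6 622, 624 and 517 and 1027, 1279 and 1054. SLO ½ replicate 2 was the highest of its group for these genes, and without it the list's median was 0.59. Summed over the list, replicate 2 was also highest in SLO (22562 CPM, beside 17821 and 19247). In VEH it was replicate 1 (11907 CPM, beside 11493 and 9563). Of the 8 largest gains in reads 5 were mitochondrial, MT-RNR2, MT-ND4, MT-CO1, MT-ND1 and MT-ND5. Nuclear genes of oxidative phosphorylation did not move with them: 8 rose, 19 fell and 49 were not called of 76, and the median of −0.03 became 0.02 with library size only. Falls in this list were close to the share over all tested genes (25.3%). NDUFS1, a subunit of complex I, fell from 167, 177 and 169 CPM to 127, 135 and 138.

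Stress pathways moved by member. Among 34 ATF4 targets and tRNA synthetases 18 fell and 6 rose (median −0.17), with LARS1 (−0.51), the serine synthesis enzyme PHGDH (−0.56) and DDIT4 (−0.76), an inhibitor of mTORC1, falling. Endoplasmic reticulum chaperones gave 14 rises and 5 falls of 23, small in size (median 0.15), led by ERN1, the stress sensor IRE1 (8.699, 9.19 and 9.09 to 14.6, 16.3 and 15.1 CPM, log2 change 0.77, SE 0.0881, adjusted p = 2.08e-08). Heat shock genes gave 6 rises and 6 falls of 22, shares close to those over all tested genes (26.7% and 25.3%). CRYAB, a small heat shock protein, rose from 6.73, 5.19 and 6.69 CPM to 32.1, 33.9 and 30.9 (log2 change 2.37, SE 0.0985, adjusted p = 9.12e-18) and read 34.5, 32.96 and 40.6 CPM in SLO (log2 difference 0.15, adjusted p = 0.098), while HSP90AA1, HSPD1 and HSPA9 fell (log2 changes −0.37, −0.36 and −0.31). The NRF2 targets gave the same counts, 6 and 6 of 22, again close to the shares over all genes, with FTH1, the ferritin heavy chain, from 344, 321 and 326 CPM to 505, 489 and 492 and the glutathione enzyme GCLC from 41.8, 46.7 and 47.5 to 70.6, 70.6 and 70.7, while TKT fell (log2 change −0.36). Of the 4 tested metallothioneins MT1E fell slightly (log2 change −0.25). MT2A and MT1X had log2 changes of −0.12 and 0.70 whose calls rest on single libraries. The MT2A call is lost without VEH replicate 3 or SLO ½ replicate 2 or 3 (adjusted p = 0.121, 0.060 and 0.0716), and that of MT1X without VEH replicate 2 or 3 or SLO ½ replicate 1 or 3 (adjusted p = 0.0607, 0.0825, 0.110 and 0.0931). Genes of the BCL2 family rose in 8 of 13 cases, none falling (median 0.28). The BH3-only genes PMAIP1 (17.02, 16.3 and 16.5 to 41.4, 42.4 and 41.9 CPM, log2 change 1.34, SE 0.0616, adjusted p = 1.02e-16) and BCL2L11 (13.5, 11.9 and 11.7 to 19.8, 22.8 and 20.4 CPM) promote apoptosis, while BCL2L1 (148, 149 and 163 to 206, 199 and 211 CPM) restrains it.

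Of the largest falls with a less known place in these pathways, PDE1C, a phosphodiesterase, went from 119, 127 and 119.7 CPM to 54.4, 49.9 and 54.99 (log2 change −1.20, SE 0.0484, adjusted p = 4.78e-18) and NLRP10, a member of the NOD-like receptor family, from 19.9, 18.8 and 20.3 to 8.403, 8.69 and 8.63. AHNAK, a large scaffold protein, lost reads from 3496, 4837 and 3992 CPM to 2622, 2420.3 and 2183, and DEK, a chromatin protein, from 2034, 1936 and 2034 to 1453, 1451 and 1437. Long noncoding RNAs added 3 falls, LINC00707 (8.89, 7.29 and 8.15 to 3.58, 2.97 and 3.65 CPM), HIF1A-AS3 (26.6, 24.8 and 25.9 to 12.4, 9.61 and 11.4 CPM) and BACE1-AS (9.46, 8.47 and 8.72 to 5.11, 4.403 and 4.31 CPM). Those that rose most were ENSG00000272468 (1.27, 1.84 and 2.04 to 6.13, 5.66 and 4.73 CPM), NECTIN3-AS1 (4.25, 4.202 and 4.805 to 13.3, 12.5 and 12.3 CPM) and ENSG00000275216 (3.43, 4.005 and 4.75 to 11.4, 12.4 and 10.1 CPM). The last was higher in SLO ½ than in SLO, where it read 5.21, 5.89 and 6.05 (log2 difference −0.99, adjusted p = 1.41e-07). HIF1A-AS3 and BACE1-AS lie antisense to coding genes and were counted by strand, and HIF1A itself moved the other way.

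Genes far from their full-dose level in SLO ½ included EFR3B (1.02, 1.44 and 1.41 CPM in VEH, 3.07, 2.12 and 2.396 in SLO ½ and 9.56, 10.7 and 9.44 in SLO), which anchors a lipid kinase at the membrane, SESN3, a stress-induced inhibitor of mTORC1 (1.02, 1.31 and 0.731 CPM in VEH, 3.24, 3.26 and 3.05 in SLO ½ and 10.1, 9.83 and 9.64 in SLO), and DNM3, a dynamin (3.17, 3.55 and 2.92 CPM in VEH, 4.26, 5.55 and 4.31 in SLO ½ and 13.4, 12.8 and 13.8 in SLO). The Notch target HES1 read 10.9, 11.8 and 7.89 CPM in VEH and 14.9, 14.6 and 9.64 in SLO ½, where replicate 3 overlapped VEH, and 32.9, 34.4 and 39.03 in SLO (log2 difference 1.44, adjusted p = 2.17e-11). Its call against VEH is lost without VEH replicate 3 or SLO ½ replicate 1 or 2 (adjusted p = 0.208, 0.126 and 0.118). MRPL23, a mitochondrial ribosomal protein, was called lower in SLO ½ and higher in SLO, but its VEH libraries read 8.06, 2.49 and 3.19 CPM, and without replicate 1 the log2 change in SLO ½ moved from −0.83 to −0.18. These genes were picked for their difference between the doses, and their values are a description.

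The label of a microglial line was checked against marker genes. Of 25 microglia markers 8 passed the filter, and 7 of them rose, among them GAS6 (26.2, 28.1 and 28.4 to 34.2, 39.1 and 35.8 CPM), which many cell types express. P2RY12, TYROBP, C1QA and HLA-DRA held 0 counts in every library, and CX3CR1, TMEM119, SPI1, AIF1 and PTPRC at most 2, so the defining markers were absent or nearly so in VEH and in SLO ½. CD74, the MHC class II chaperone, held 1 count in each VEH library and 11, 10 and 12 in SLO ½. At 0 counts were 13 to 16 of the 25 in VEH and 11 to 13 in SLO ½. Summed over the list, TPM ran from 178 to 197 in VEH and from 217 to 233 in SLO ½. Summed markers of other cell types were higher in SLO ½ too. Neuron markers summed to 4.48 to 4.89 TPM in VEH and 7.41 to 7.78 in SLO ½ (4 of 5 tested rose), endothelial markers to 0.935 to 1.64 and 3.99 to 4.34 (2 of 3), oligodendrocyte markers to 69.6 to 71.0 and 80.2 to 89.6 (2 of 3), and astrocyte markers to 272 to 277 and 382 to 419.8 (3 of 4). DCX, STMN2, AQP4, MAG and the microglial receptor GPR34 held 0 counts in VEH and SLO ½. Fibroblast and pericyte markers, many of which this line expresses, summed to 3202 to 3339 TPM in VEH and 3615 to 3679 in SLO ½, with 5 rises and 1 fall of 9. How these markers bear on the other results was not tested.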

How the data were processed

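Poly(A)-selected RNA of HMC3 cells was made into libraries with the KAPA RNA HyperPrep kit. Per the submitters' processing notes, reads were trimmed with Trimmomatic 0.38 and mapped with STAR 2.7.1a to GRCh38. The authors deposited raw counts per gene, counted by strand, and TPM values, whose gene lengths and annotation release are not given in the sources used here. The deposited counts of all 9 libraries were fitted with edgeR 4.0.16 in R 4.3.3 (quasi-likelihood test, group as the only term, TMM scaling, filterByExpr), and p-values were adjusted by Benjamini-Hochberg over the 14727 genes tested. The deposited TPM served for summed marker levels and, with limma 3.58.1, for alternatives with a pseudocount of 1 or 0.1. DESeq2 1.42.0 was another alternative. The fit was tested on simulated data.

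Genes were named by a rule: the 12 largest rises and falls with adjusted p below 0.001, separate groups and an average level (log2 CPM) of 2 or more, the 8 largest gains and losses of CPM, the 3 smallest p per list, the 6 largest dose differences each way, 3 long noncoding RNAs each way, and genes the study names; exceptions are marked. Some genes that the rule names are not reported here. The members and lists were chosen with earlier results of these data known. Reads that map to several places were not counted, so near-identical copies (histone, HLA, IFIT, ribosomal protein and mitochondrial genes) are uncertain. Promoter sequences came from RefSeq (GRCh38.p14), where 10758 of the tested genes had an entry. Counting floors (3 counts) cover counting error only.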

Additional observations from a re-analysis of the deposited data

Results flagged for a closer look

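Differences between the doses, tested as SLO against SLO ½ in the edgeR fit, were largest in log2 units, among genes called in both contrasts whose mean level was 2 or more (log2 CPM), for EFR3B (1.97), MRPL23 (1.64), SESN3 (1.63), DNM3 (1.498), HES1 (1.44) and ITGB3 (1.41), which were higher in SLO. MX2 (−2.80), LINC00707 (−2.49), OAS2 (−2.49), OAS1 (−2.29), MX1 (−2.26) and BST2 (−2.24) were lower in SLO. LINC00707 was the 1 noncoding RNA among them, at 3.58, 2.97 and 3.65 CPM in SLO ½ and 0.605, 0.412 and 0.798 in SLO, below the 8.89, 7.29 and 8.15 CPM of VEH, so it fell at each step.

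Among listed genes under the filter on low counts, 8 had at least 1 count in each of the 3 SLO ½ libraries and 0 counts in every VEH library. Over the 3 SLO ½ libraries together, RTP4, an interferon-induced chaperone of receptors, held 12 counts, IFNB1 9, COL3A1 8, CXCL10 5, LUM 5, AIM2, a DNA sensor of the inflammasome, 4, GBP5 4 and SLC1A2 4. They were tested only without an expression filter, where edgeR called 3 of the 8 higher, RTP4, IFNB1 and COL3A1 (adjusted p = 0.00516, 0.0184 and 0.0255). Because the 8 were picked by their counts in this same contrast, these p-values are a description and no separate evidence of a rise.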

How the results depend on the processing

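Of the counts over all genes, 1 moved by more than 1.5 times. Genes called and past 2-fold numbered 1012 in the reported fit, 464 with at least 10 counts required in every library, 369 with limma on log2(TPM + 1) and 453 with the same and no expression filter; the pseudocount shrinks low genes by construction. With 1 library left out in turn, the range was 6845 to 7745 genes called, 3454 to 3984 risen, 3391 to 3770 fallen and 1021 to 1109 past 2-fold, and 5231 to 6277 called between SLO and SLO ½; leaving out SLO libraries from the comparison with VEH was added after seeing the data. DESeq2 called 6617 genes. With the replicate number as a block, 7749 genes were called, 3987 risen and 3762 fallen. Same-numbered VEH and SLO ½ libraries did not deviate together over all tested genes (correlations of 0.003, 0.02 and 0.009). This cannot decide whether the numbers pair the samples, since a shared batch that touched few genes would leave such values small. Reads outside annotated genes were highest in replicate 2 of both groups, at 6.62% in VEH and 8.01% in SLO ½.

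Medians near 0 changed sign: the YAP and TEAD list reached 0.0148 and the nuclear oxidative phosphorylation list 0.0232 with library size only, and the ribosome biogenesis list −0.0116 on the log2(TPM + 1) scale with and without the filter and −0.0125 on the log2(TPM + 0.1) scale. The last list ran from −0.0030 without VEH replicate 1 to 0.0382 without VEH replicate 3. The cause was not tested. No named gene changed sign past the threshold, and 13 lost their call under at least 1 alternative, among them ALDOC, DNM3, EFR3B, HES1, LDHA, LMNA, MRPL23, MT1X, MT2A, SNAP25, ULK1 and ZMPSTE24. Depth limits what can be said of genes such as IFNB1, CXCL10 and TNF, which stayed under the filter.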
